A study of Rattus norvegicus with 18 samples.

Results

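The comparison described here is the change of RNA on large polysomes of rat lung across birth, over all genes measured, and it asks which mRNAs were more or less loaded on large polysomes soon after birth than shortly before. It rests on 6 of the 18 arrays of the study, chosen by their titles: 3 arrays of polysomal RNA from newborn lung (P1) against 3 arrays of polysomal RNA from lung on fetal day 22 (FD22). P1 lungs came from pups 5 h after vaginal birth. FD22 lungs came from fetuses delivered by Caesarean section, so birth and the route of delivery cannot be told apart. All animals were Wistar rats, the lungs were snap-frozen, and the 3 arrays of a stage came from 3 independent litters. Large polysomes were sucrose gradient fractions with more than 7 ribosomes per mRNA, and each lysate also gave 1 array of total RNA. The RNA came from whole lung, so that fewer cells of a type and less RNA per cell cannot be told apart.

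A polysome is an mRNA read by several ribosomes at once, and the RNA of large polysomes therefore stands for messages under active translation. Its level for a gene depends on how much of the mRNA the tissue holds and on what part of that mRNA carries many ribosomes. At birth the lung replaces liquid with air, meets a higher oxygen tension, is stretched by breathing, and starts to carry the whole cardiac output. mRNAs of ribosomal proteins and elongation factors form a class of their own, the TOP mRNAs, which start with a cytosine followed by a run of pyrimidines and move into or out of polysomes together when growth signals change.

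Values are deposited array signals in arbitrary units, and changes are P1 minus FD22 differences of log2(signal + 5.5) fitted with limma. A gene counts as higher or lower, and is said to have risen or fallen, where the Benjamini-Hochberg adjusted p over all 21675 probe sets tested was under 0.05. On polysomes 549 of 11590 genes were higher in P1 (4.74%) and 672 were lower (5.8%), and 111 of the risers and 150 of the fallers changed more than 2-fold. The 3 arrays of P1 and the 3 of FD22 did not overlap for 26.6% of all genes. The median gene changed by -0.03. By probe set 821 were higher and 986 lower, so that 45.4% of the calls were higher. Centring each array on its median turned that split to 1050 higher and 747 lower (58.4% higher), and quantile normalization gave 685 and 698. The balance of risers against fallers therefore depended on the scaling.

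The arrays matched lung by their markers, and some also carried RNA of other organs. Surfactant protein C (Sftpc), made by alveolar type II cells, had signals of 3919, 7790.4 and 5935 on P1 polysomes, against 3836, 5298 and 4748 on FD22 polysomes. Scgb1a1 of airway club cells and Ager of type I cells were also bright, with at least 4239.5 and 1593.5 on all 6 arrays. Albumin (Alb), a liver product, measured 32.4, 42.4 and 72.7 on P1 polysomes, against 31.6, 4892 and 47.2 on FD22 polysomes. The second FD22 lysate stood apart by this gene and by 4 other liver genes (Afp, Ttr, Serpina1 and Fgg). The 5 summed to 291, 347 and 428 in P1, against 185, 9110 and 289 in FD22, and total RNA of the same lysate summed to 9515. By limma 0 of the 5 were called (0 at an unadjusted p under 0.05).

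The 16 tested markers of heart and skeletal muscle summed to 4150, 1966 and 2020 in P1, against 5173, 1577 and 7417 in FD22. The atrial hormone Nppa was 128, 79.2 and 149.9 in P1 and 1074, 71.6 and 2709 in FD22. FD22 lysates 1 and 3 were thus the high ones, and 0 of the 16 genes passed the limma test (3 lower and 0 higher at an unadjusted p under 0.05). Without FD22 lysate 2, the one low in these markers and high in liver, 3 of the 16 were called lower, and Nppa changed by -3.83 (adjusted p = 0.000168). The sums of 25 erythroid genes overlapped, with 9527 to 13186 in P1 and 10358 to 11924 in FD22. Without the FD22 lysate with liver transcripts 499 probe sets were higher and 576 lower, and 471 and 514 of these were among the 821 and 986 called with it. The second principal component of the 9 polysomal arrays placed the arrays numbered 1 of every stage at 28.8 to 36.6 and the others at -35.4 to -6.76. With arrays numbered 2 and 3 alone 425 probe sets were higher and 387 lower. The part of these lysates in single results was not tested beyond leaving them out.

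**Figure D1:**
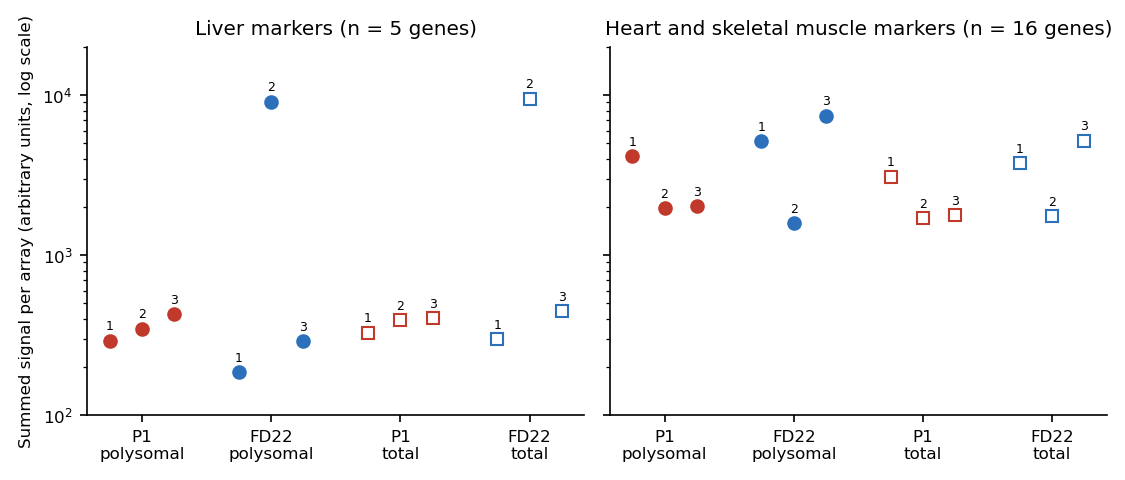
Summed signal of 5 liver markers and 16 heart and skeletal muscle markers on each array (log axis), P1 in red and FD22 in blue, polysomal RNA filled and total RNA open, numbers giving the lysate. FD22 lysate 2 reached 9110 for liver on polysomes, where the other 5 arrays lay between 185 and 428, and FD22 lysates 1 and 3 had the highest muscle sums.

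Among the large rises was that of Acot1, an acyl-CoA thioesterase of fatty acid metabolism. Its signals were 319.8, 482 and 274 on P1 polysomes, against 15.9, 20.1 and 47.3 on FD22 polysomes. The change was 3.53 ± 0.34 (SE, adjusted p = 8.85e-06). Angptl4, a secreted inhibitor of lipoprotein lipase, measured 304, 554 and 336 on P1 polysomes, against 36, 41 and 41.2 on FD22 polysomes. It rose by 3.12 ± 0.39 (SE, adjusted p = 8.49e-05). Both genes had no overlap between the stages. Their FD22 signals lay near or under the filter level of 40.8, so that the size of these changes depends on the constant added before the logarithm, and the change of Acot1 was 3.76 with a constant of 0.9 and 2.84 with 26.3.

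Areg encodes amphiregulin, an EGF receptor ligand, and it had 199.5, 213 and 207 on P1 polysomes, against 26.1, 20.2 and 16.2 on FD22 polysomes. The rise was 3.03 ± 0.28 (SE, adjusted p = 8.85e-06), with the narrowest spread of P1 values among these genes, and its size also depended on the constant (3.28 with 0.9 and 2.31 with 26.3). Tnfrsf12a, the receptor of the cytokine TWEAK, had 499, 408 and 308 on P1 polysomes, against 97, 70.5 and 47.3 on FD22 polysomes, a change of 2.44 ± 0.25 (SE, adjusted p = 1.05e-05). Aqp3, a water and glycerol channel, had 368, 315 and 389 on P1 polysomes, against 48.7, 80 and 73.7 on FD22 polysomes, a change of 2.33 ± 0.23 (SE, adjusted p = 8.85e-06). The 14 largest rises among called genes with a mean above 96.4 in P1 and no overlap also held Atf3, described below, Fam107a (2.00), the protein C receptor Procr (1.89), Crispld2 (1.87), the ErbB ligand Nrg1 (1.87), Nptx1 (1.81), the uridine phosphorylase Upp1 (1.79), the nuclear receptor Nr4a1 (1.78) and the folylpolyglutamate synthase Fpgs (1.77). Each of the 9 was called in total RNA as well, by 1.55 to 2.87.

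Among genes with a mean signal above 96.4 in the higher stage, the deepest falls were those of Rsrp1, an arginine- and serine-rich protein, and Ddit4, an inhibitor of the growth kinase mTORC1. Rsrp1 measured 345, 234 and 332 on P1 polysomes, against 846, 993 and 1456 on FD22 polysomes, and it fell by 1.82 ± 0.22 on the log2 scale (SE, adjusted p = 6.22e-05). Ddit4 measured 457, 314 and 340.2 on P1 polysomes, against 1363, 1014 and 1452 on FD22 polysomes, and it fell by 1.77 ± 0.20 (SE, adjusted p = 2.13e-05). In both genes every P1 array lay under every FD22 array. Crebzf, a bZIP co-regulator, changed by -1.56 ± 0.16 (SE, adjusted p = 1.17e-05) and the iron-sulfur assembly gene Isca1 by -1.52 ± 0.14 (SE, adjusted p = 8.85e-06). Ppp1r3b, which brings protein phosphatase 1 to glycogen, changed by -1.49 ± 0.17 (SE, adjusted p = 2.92e-05). The remaining falls among the 14 deepest of such genes were the mitochondrial protein gene Mgarp (-1.59), the gap junction gene Gja3 (-1.56), Tmem252 (-1.44), Rprml (-1.42), Rap1gap (-1.41), and 4 genes described below with their groups.

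**Figure D2:**
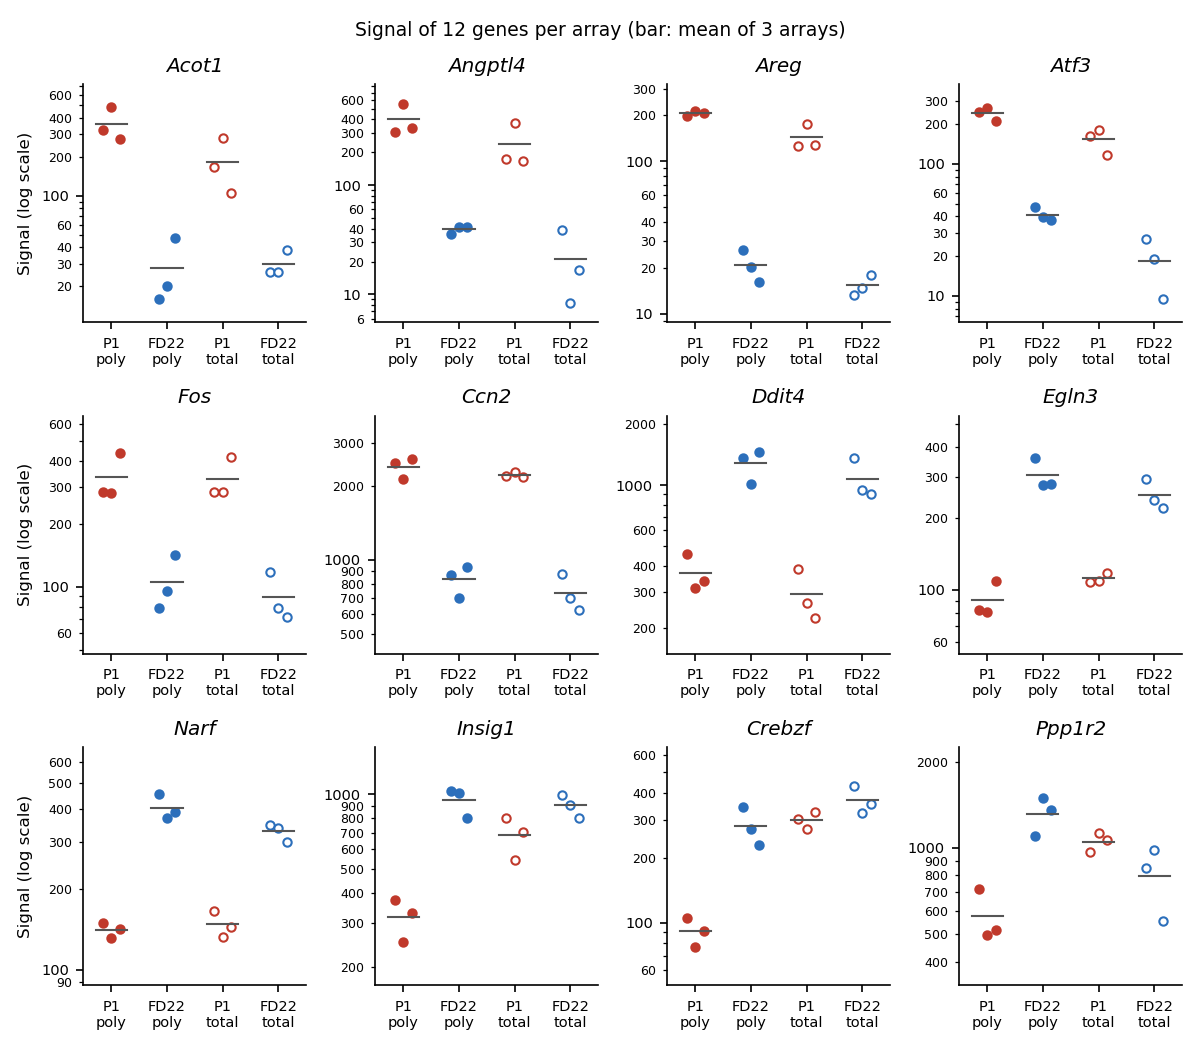
Signals of 12 genes on every P1 and FD22 array (log axes), with P1 in red, FD22 in blue, polysomal RNA filled, total RNA open and bars for the mean of 3 arrays. Acot1 to Ccn2 lay higher in P1 in both fractions and Ddit4, Egln3 and Narf lower, whereas polysomal Insig1, Crebzf and Ppp1r2 were lower in P1 by 1.56, 1.56 and 1.19 on the log2 scale and were not called in total RNA.

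Immediate early genes, whose mRNAs appear within minutes of a stimulus, had a median change among the highest of the 34 lists. Of 41 tested, 23 rose (56.1%), 1 fell and the median change was 0.52, against -0.03 over all genes. Atf3, a stress-induced transcription factor, had 248, 266 and 211 on P1 polysomes, against 46.9, 39.6 and 37.5 on FD22 polysomes, a change of 2.40 ± 0.26 (SE, adjusted p = 1.8e-05). Fos, a subunit of the AP-1 factor, had 283, 279.8 and 437 on P1 polysomes, against 78.9, 95.2 and 142 on FD22 polysomes, a change of 1.62 ± 0.24 (SE, adjusted p = 0.000407). The zinc finger factor Egr1 had 439.6, 521 and 548 on P1 polysomes, against 195, 156 and 257 on FD22 polysomes, a change of 1.31 ± 0.19 (SE, adjusted p = 0.000293). In these 3 genes the lowest P1 array exceeded the highest FD22 array.

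Ier3, an early gene linked to survival signals, rose by 1.41 ± 0.19 (SE, adjusted p = 0.000133) on polysomes and by 2.66 ± 0.19 (SE, adjusted p = 2.97e-07) in total RNA, but the difference between the fractions did not pass (adjusted p = 0.245). The differentiation inhibitor Id1 rose by 0.80 ± 0.12 (SE, adjusted p = 0.000478) and the phosphatase gene Dusp1, which switches off MAP kinases, by 1.12 ± 0.24 (SE, adjusted p = 0.00677). Fosb, Myc, Jun, Junb, Fosl1, Klf2, Klf4 and Klf6 were also among the risers. Zfp36, whose protein speeds decay of AU-rich mRNAs, was the 1 member that fell, and it lost its call without FD22 lysate 1, FD22 lysate 3, P1 lysate 1 or P1 lysate 2. Without 1 lysate 15 to 18 members were called higher, with 15 without FD22 lysate 2, 15 without P1 lysate 1 and 15 without P1 lysate 2. The median was 0.55 without FD22 lysate 2.

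Promoter letters of these genes are shown because SRF and CREB, factors that carry early gene induction, read known sequences there. RefSeq windows of 300 bases (GRCr8, 250 before to 50 after the annotated start) were found for 9592 of the 11590 genes and for 30 of the 41 early genes. The serum response element (CArG box) lay in 6 of the 30 windows (20%), against 1.34% of all windows. The cAMP response element TGACGTCA lay in 5 of the 30 (16.7%), against 3.15%. Among the 14 risers with a window, 3 held the CArG box (21.4%) and 3 the cAMP response element (21.4%). The faller Zfp36 held a CArG box too. Both strands were searched, and a match of one of these motifs cannot also be a match of the other. A match is a description of the letters and not a site. Capitals mark the motif in stretches from 20 bases before the first match to 20 bases past the start. Egr1 at chr18:26736953-26737097 (plus strand) has CArG boxes that begin 105 and 83 bases before its start, and Dusp5, a further riser of the list, at chr1:262543672-262543793 (plus strand) has an adjoining pair at 82 and 72.
Egr1: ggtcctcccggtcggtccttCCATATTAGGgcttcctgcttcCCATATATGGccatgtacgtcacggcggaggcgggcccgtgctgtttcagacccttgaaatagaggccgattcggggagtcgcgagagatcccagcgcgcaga
Dusp5: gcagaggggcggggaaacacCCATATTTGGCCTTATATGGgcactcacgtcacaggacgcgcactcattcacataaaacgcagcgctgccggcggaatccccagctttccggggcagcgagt
The cAMP response element begins 124 bases before the start of Dusp1 at chr10:17184709-17184872 (plus strand), and 91 bases before the start of Areg at chr14:17265622-17265752 (minus strand).
Dusp1: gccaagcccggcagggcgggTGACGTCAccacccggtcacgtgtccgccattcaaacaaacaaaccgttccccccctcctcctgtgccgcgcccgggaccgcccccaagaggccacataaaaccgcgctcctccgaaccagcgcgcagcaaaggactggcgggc
Areg: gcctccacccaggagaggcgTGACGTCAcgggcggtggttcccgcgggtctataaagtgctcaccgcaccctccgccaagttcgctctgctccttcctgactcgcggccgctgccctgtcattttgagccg

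Ligands and receptors around these early genes moved in both directions. Of 17 EGF family ligands, receptors and inhibitors, 3 rose (17.6%, against 4.74% of all genes) and 1 fell (5.9%, against 5.8%). Besides Areg and Nrg1 the riser was Spry1, a feedback inhibitor of receptor tyrosine kinases, at 0.55 ± 0.16 (SE, adjusted p = 0.0339). Its relative Spry2 fell, with 249, 283 and 303 on P1 polysomes, against 552, 667 and 580.5 on FD22 polysomes, a change of -1.09 ± 0.20 (SE, adjusted p = 0.00234). The 2 Sprouty genes thus lay on opposite sides, without overlap between stages in either, but the call of Spry1 was lost without any 1 lysate other than FD22 lysate 1. Of 37 other growth factors and cytokine receptors, 5 rose (13.5%) and 3 fell (8.1%), near the share of all genes for the fallers. The bone morphogenetic protein Bmp2 rose by 1.09 ± 0.19 (SE, adjusted p = 0.00156) and the IGF-binding protein Igfbp3 by 1.12 ± 0.24 (SE, adjusted p = 0.00724). The epithelial growth factor Fgf9, a driver of mesenchymal growth in the fetal lung of the mouse, changed by -0.91 ± 0.18 (SE, adjusted p = 0.00451). Of 25 NF-kB targets and chemokines, 4 rose (16.0%) and 2 fell (8.0%), with Nfkbiz at 1.13, the interleukin receptor Il1r1 at 0.79, the chemokine Cxcl12 at -0.94 and the adhesion molecule Vcam1 at -0.77. Cxcl12 lost its call without FD22 lysate 2 or P1 lysate 1, and Vcam1 without FD22 lysate 1, FD22 lysate 3 or P1 lysate 3.

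Genes of the actin cytoskeleton and targets of the stretch-sensitive factors SRF and YAP rose in part. Of 33 tested, 8 rose (24.2%) and 0 fell by limma (0 also at an unadjusted p under 0.05), with a median of 0.29. Ccn2, or connective tissue growth factor, a standard YAP target, had 2471, 2136 and 2573 on P1 polysomes, against 867, 698 and 937 on FD22 polysomes, a change of 1.52 ± 0.14 (SE, adjusted p = 8.85e-06). The spread within each stage was small beside this difference. The actin-binding scaffold Pdlim7 rose by 1.01 ± 0.15 (SE, adjusted p = 0.000478), the LIM protein Fhl2 by 0.97 ± 0.19 (SE, adjusted p = 0.00419) and the smooth muscle protein transgelin (Tagln) by 0.84 ± 0.18 (SE, adjusted p = 0.00699). The count was 5 without FD22 lysate 2 and 6 or 7 without any other single lysate.

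Genes that hypoxia induces through the factor HIF lay mostly lower. Of 35 tested, 7 fell (20%, against 5.8% of all genes) and 2 rose (5.7%, near the 4.74% of all genes). The median was -0.18. Egln3, a prolyl hydroxylase that marks HIF for destruction and is itself a HIF target, had 82.2, 80.7 and 108 on P1 polysomes, against 360.0, 275 and 278 on FD22 polysomes, a change of -1.69 ± 0.16 (SE, adjusted p = 8.85e-06). Narf, a nuclear prelamin-binding protein that the list holds as a hypoxia-induced gene, had 149, 131 and 143 on P1 polysomes, against 454, 371 and 389 on FD22 polysomes, a change of -1.48 ± 0.14 (SE, adjusted p = 8.85e-06). Ankrd37 had 50.5, 44.9 and 22.4 on P1 polysomes, against 176, 107 and 103 on FD22 polysomes, a change of -1.60 ± 0.27 (SE, adjusted p = 0.00134). The P1 arrays were below all FD22 arrays in each.

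The collagen prolyl hydroxylase P4ha1 fell by 1.15 ± 0.17 (SE, adjusted p = 0.000347) and the lipoprotein receptor Vldlr by 1.09 ± 0.14 (SE, adjusted p = 0.000133). Ddit4 and Ndrg1, a stress-responsive cytoplasmic protein, completed the fallers. The 2 risers were the haem oxygenase gene Hmox1, at 1.04 ± 0.21 (SE, adjusted p = 0.00535), which also belongs to the antioxidant list, and P4ha2. Vegfa, the vascular growth factor and a HIF target, measured 821, 784 and 789 on P1 polysomes, against 1231, 842 and 1066 on FD22 polysomes, and its change of -0.37 ± 0.18 (SE, adjusted p = 0.227) did not pass, but without FD22 lysate 2 it was -0.52 (adjusted p = 0.0405). Without 1 lysate 6 or 7 members fell and 1 to 3 rose. The fall was measured in total RNA too, where 7 members were called lower and 0 higher (2 higher at an unadjusted p under 0.05).

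The core of the HIF-bound element, ACGTG on either strand, lay in 17 of 28 windows of this list (60.7%), against 25.16% of all windows. Among the 6 fallers with a window 3 held it. An E-box CACGTG holds the core on both strands, so that such a site counts for both motifs. Ankrd37 at chr16:53001257-53001526 (plus strand) has 4 matches, 2 of them in 1 E-box, and Ddit4 at chr20:28437018-28437195 (minus strand) has 1 upstream of the start. Capitals mark the core.
Ankrd37: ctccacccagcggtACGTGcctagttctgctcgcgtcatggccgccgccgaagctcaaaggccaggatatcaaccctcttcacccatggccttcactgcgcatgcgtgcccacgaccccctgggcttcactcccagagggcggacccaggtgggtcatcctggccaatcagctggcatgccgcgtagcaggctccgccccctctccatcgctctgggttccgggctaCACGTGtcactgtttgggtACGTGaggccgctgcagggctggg
Ddit4: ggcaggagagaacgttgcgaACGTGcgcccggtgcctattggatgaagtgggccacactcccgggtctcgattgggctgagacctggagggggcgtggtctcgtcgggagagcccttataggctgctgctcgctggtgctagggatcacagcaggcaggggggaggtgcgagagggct

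Genes of sterol and fatty acid synthesis fell in part. Of 42 genes, 10 fell (23.8%) and 0 rose by limma (3 higher at an unadjusted p under 0.05), and the median was -0.37. Insig1, which holds the sterol-sensing complex in the endoplasmic reticulum, had 372, 253 and 332 on P1 polysomes, against 1033, 1012 and 799 on FD22 polysomes, a change of -1.56 ± 0.17 (SE, adjusted p = 1.31e-05). Dhcr7, the last enzyme of one route to cholesterol, had 46.5, 49.1 and 75.3 on P1 polysomes, against 114, 195 and 132 on FD22 polysomes, a change of -1.28 ± 0.24 (SE, adjusted p = 0.00309). Lss, which closes the sterol rings, changed by -0.92 ± 0.18 (SE, adjusted p = 0.00383), and the isoprenoid isomerase Idi1 by -0.91 ± 0.20 (SE, adjusted p = 0.00889). Fdft1, Sqle, Msmo1, Fads1, Acly and Chpt1 made up the 10. The sterol element core CACCCCAC, on either strand, lay in 1 of 33 promoter windows of the list (3.0%), against 2.51% of all. FD22 lysate 2, with its liver transcripts, had the highest FD22 value in 6 of the 10, namely Dhcr7, Idi1, Fdft1, Fads1, Chpt1 and Msmo1. Without it 5 members fell, with a median of -0.36, and 5 fell without P1 lysate 2 and 6 without P1 lysate 3.

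Cell cycle genes had the lowest median of the 34 lists, -0.53. Of 52 tested, 14 fell (26.9%) and 1 rose. The proliferation antigen Mki67 had 184, 151 and 178 on P1 polysomes, against 314, 353 and 299 on FD22 polysomes, a change of -0.89 ± 0.17 (SE, adjusted p = 0.00269). The mitotic checkpoint kinase Bub1b had 49.1, 41.7 and 57 on P1 polysomes, against 103, 156 and 90.7 on FD22 polysomes, a change of -1.13 ± 0.23 (SE, adjusted p = 0.0046), with its highest value in FD22 lysate 2. Cyclin D1 (Ccnd1), which starts the cycle on growth signals, was the riser, with 1385, 1987 and 1664 on P1 polysomes, against 724, 885 and 944 on FD22 polysomes, a change of 0.97 ± 0.18 (SE, adjusted p = 0.00273). Its direction was thus opposite to that of the mitotic genes.

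The cell cycle count depended on single lysates. It was 5 without FD22 lysate 2, 4 without P1 lysate 1, 5 without P1 lysate 2 and 8 without P1 lysate 3. Over the 52 genes, the median of the signal relative to each gene's mean on the 6 arrays was 0.764, 0.782 and 0.886 in P1, against 1.05, 1.4 and 1.05 in FD22. FD22 lysate 2 was the highest, and the stages did not overlap without it either. The median change without that lysate was -0.40. Of the p53-linked and growth arrest genes, 2 of 24 fell (8.3%, against 5.8% of all genes). They were the cell cycle inhibitor Cdkn2c at -0.82 ± 0.14 (SE, adjusted p = 0.00123) and Gadd45g at -0.57 ± 0.16 (SE, adjusted p = 0.0366), whose call was lost without FD22 lysate 2 or any 1 of the P1 lysates.

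Genes of the integrated stress response, through which the factor ATF4 raises amino acid uptake and synthesis, split. Of 30 tested, 7 rose (23.3%) and 3 fell. The amino acid transporters Slc7a5 and Slc7a1 rose by 1.17 ± 0.16 (SE, adjusted p = 0.000154) and by 0.85 ± 0.16 (SE, adjusted p = 0.0033). Atf4 itself had 587, 639 and 509.9 on P1 polysomes, against 395, 265 and 254 on FD22 polysomes, a change of 0.94 ± 0.18 (SE, adjusted p = 0.00279). Nupr1, a stress-induced chromatin protein, had 408, 348 and 352 on P1 polysomes, against 253, 170.1 and 128 on FD22 polysomes, a change of 1.04 ± 0.20 (SE, adjusted p = 0.0034). Psat1, an enzyme of serine synthesis, was among the fallers at -1.0 ± 0.17 (SE, adjusted p = 0.00128), although it is a known ATF4 target like the transporters.

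The ATF4 element TGATGNAA, on either strand, lay in 7 of 28 windows of this list (25.0%), against 1.98% of all windows. Capitals mark it in Nupr1 at chr1:190645882-190645976 (minus strand), as its reverse complement and 55 bases before the start, and in Slc7a1 at chr12:11664438-11664507 (plus strand), 30 bases before.
Nupr1: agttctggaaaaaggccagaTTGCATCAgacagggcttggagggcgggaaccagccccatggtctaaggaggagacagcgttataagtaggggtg
Slc7a1: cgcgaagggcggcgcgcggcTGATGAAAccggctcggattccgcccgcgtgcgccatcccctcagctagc
Of the 19 aminoacyl-tRNA synthetases, which charge tRNAs, 5 rose (26.3%, against 4.74% of all genes) and 0 fell by limma (0 at an unadjusted p under 0.05). The glycine enzyme Gars1 led the risers at 0.86 ± 0.15 (SE, adjusted p = 0.00172). The count was 2 without FD22 lysate 1 and 3 without FD22 lysate 2 or without any 1 of the P1 lysates. Of 22 heat shock genes, 5 rose (22.7%, against 4.74% of all genes) and 0 fell by limma (2 lower at an unadjusted p under 0.05). The median of the list was 0.06, and 12 of the 22 changes were positive. The small chaperone Hspb1 had 3081, 3204 and 2901 on P1 polysomes, against 1527, 1519 and 1269 on FD22 polysomes, a change of 1.09 ± 0.11 (SE, adjusted p = 1.17e-05). Without FD22 lysate 1 or P1 lysate 3, 3 heat shock genes rose. Of 37 chaperones and secretion genes of the endoplasmic reticulum, 1 passed, as a faller (2.7%, against 5.8% of all genes). It was Sdf2l1 at -0.77 ± 0.20 (SE, adjusted p = 0.0222), which lost its call without any 1 lysate other than FD22 lysate 3.

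**Figure D3:**
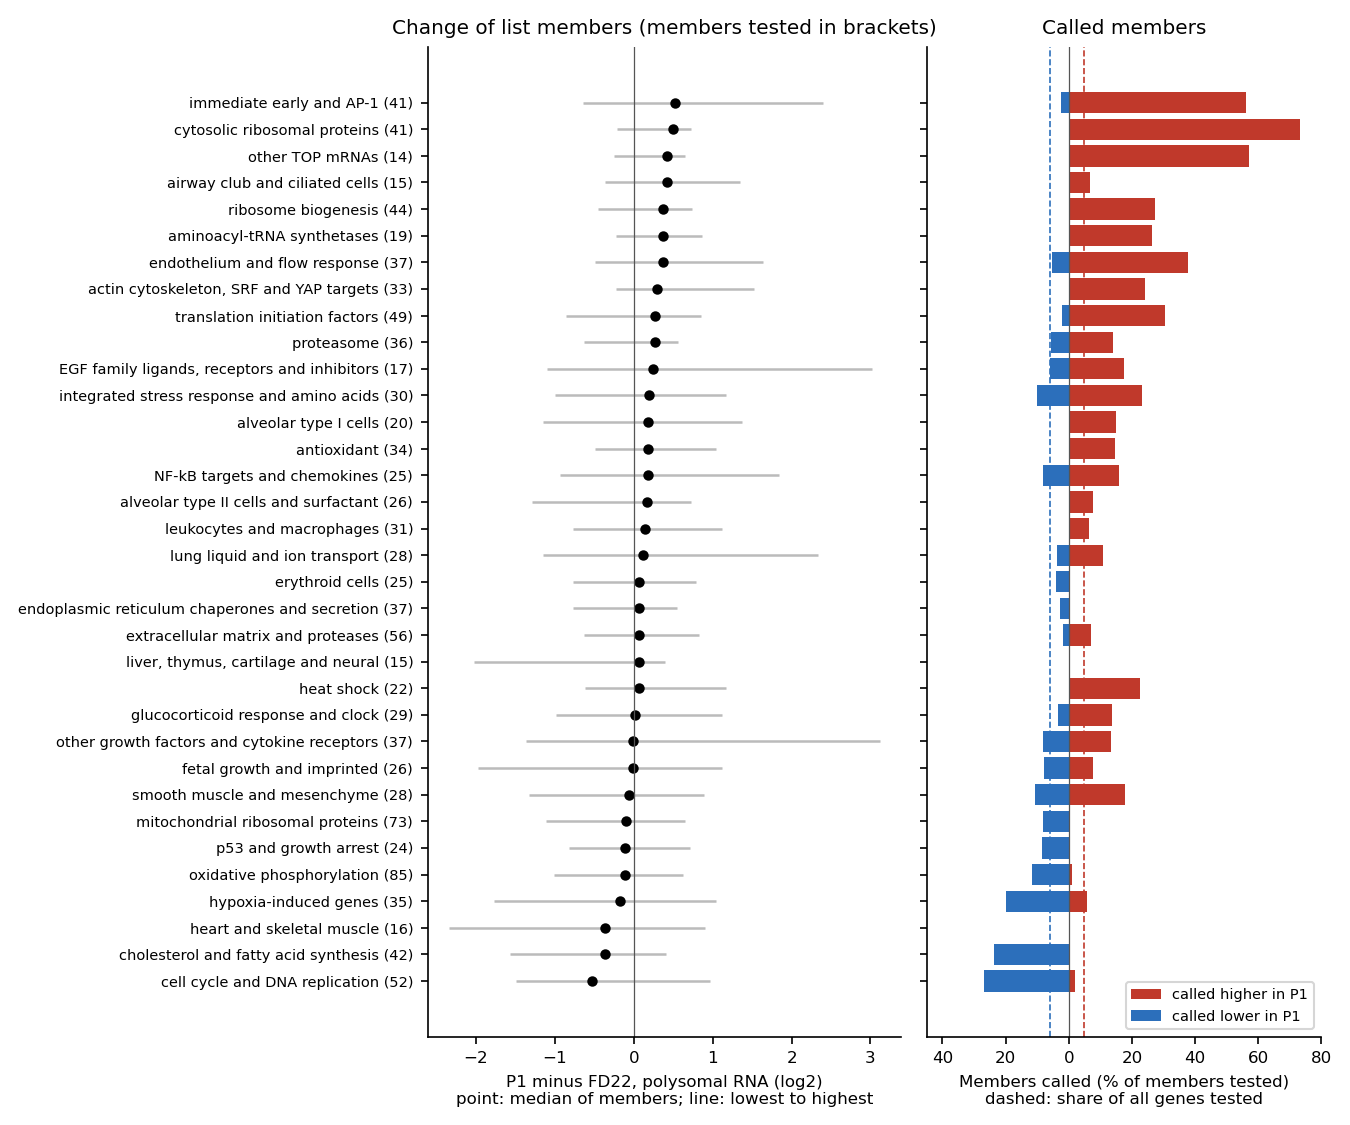
Left, the median (point) and the range from lowest to highest (line) of the polysomal change of the members of 34 gene lists, with the number of members tested in brackets. Right, the share of members called higher (red) or lower (blue) in P1, with the shares of all genes (4.74% and 5.8%) as dashed lines. Immediate early genes and ribosomal proteins stand near the top and cell cycle genes, at a median of -0.53, at the bottom.

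Ribosomal protein genes were the list with the largest share of risers. Of 41 cytosolic ribosomal proteins tested, 30 rose on polysomes (73.2%) and 0 fell by limma (0 at an unadjusted p under 0.05). The median was 0.50 and the range -0.21 to 0.72, and in 33 of the 41 all P1 arrays lay above all FD22 arrays. Of all genes 26.6% had no overlap between the stages, counting both directions. Rpl4 of the large subunit had 1773, 2406 and 2026 on P1 polysomes, against 1255, 1328 and 1149 on FD22 polysomes, a change of 0.72 ± 0.11 (SE, adjusted p = 0.00063). Rps3 of the small subunit had 2357, 3115 and 2142 on P1 polysomes, against 1616, 1669 and 1659.9 on FD22 polysomes, a change of 0.60 ± 0.12 (SE, adjusted p = 0.00378). Rpl24, Rpl14 and Rpl6 of the large subunit rose by 0.70, 0.67 and 0.56. The changes were thus small, of similar size and in 1 direction in 40 of the 41 genes.

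In total RNA of the same lysates 0 of the 41 were called higher and 0 lower by limma, and 0 either way at an unadjusted p under 0.05. The total median was 0.004. Rpl4 in total RNA measured 3181, 3239 and 3582 in P1, against 2768, 3164 and 3185 in FD22, a change of 0.13 ± 0.11 (SE, adjusted p = 0.607). The test of the difference between the fractions called 0 of the 41 genes, with 30 more positive on polysomes at an unadjusted p under 0.05, a median difference of 0.51 and a smallest adjusted p of 0.389. The 41 genes share the same 6 lysates and are no replicates of each other. Probe sets of ribosomal protein genes can also bind transcripts of processed pseudogenes, which was not tested.

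The polysomal count moved with single lysates and with the scaling. It was 14 without FD22 lysate 2, 15 without FD22 lysate 3 and 8 without P1 lysate 2, and between 23 and 29 without any other lysate. Over the 41 genes, the median of the signal relative to each gene's mean on the 6 arrays was 1.03, 1.41 and 1.06 in P1, against 0.879, 0.839 and 0.771 in FD22. P1 lysate 2 was the highest, and without it the median change was 0.36. Quantile normalization left 18 calls with a median of 0.39 and median centring gave 31 with 0.56. With the 6 arrays of the contrast alone 1 of the 41 was called, but 24 were called from these arrays with the array number as a block. The main fit left out that block. The count was 16 without the variance trend and 17 without the filter.

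**Figure D4:**
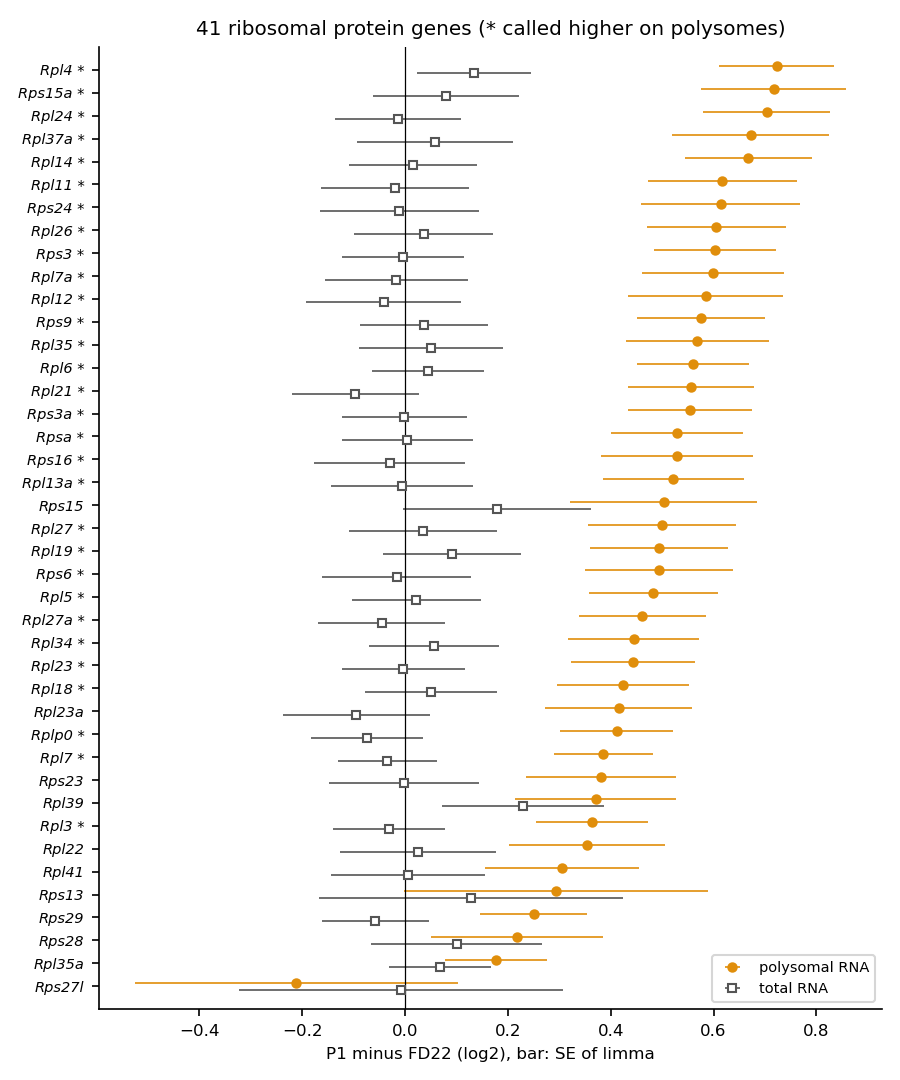
Change of 41 ribosomal protein genes across birth (P1 minus FD22, log2, bars for the SE of limma) in polysomal RNA (filled circles) and total RNA (open squares), with a star for the 30 called on polysomes. The polysomal points lie at 0.18 or above in 40 genes, whereas the total points scatter around 0.

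Across the 3 stages the signals of Rpl4 on polysomes averaged 2268 ± 103 at FD19, 1244 ± 90.2 at FD22 and 2068 ± 319 at P1 (SD, n = 3 each). Rps3 averaged 2667 ± 89, 1648 ± 28.2 and 2538 ± 511 in the same order. FD22 was the low stage for both. The FD22 minus FD19 comparison shares the FD22 arrays with the one across birth, and its change was -0.86 for Rpl4 and -0.69 for Rps3.

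Other mRNAs of the TOP class lay close to the ribosomal proteins in value. Of 14 tested, 8 rose (57.1%) and 0 fell by limma (1 lower at an unadjusted p under 0.05), with a median of 0.43 on polysomes and 0.04 in total RNA, where 0 were called (1 higher and 0 lower at an unadjusted p under 0.05). Among the 8 risers, Rpsa is also counted with the ribosomal proteins above and Eif3f with the initiation factors below, so these lists are not separate. The elongation factor subunit Eef1b2 had 1744, 2210.2 and 1755 on P1 polysomes, against 1229, 1176 and 1198 on FD22 polysomes, a change of 0.65 ± 0.11 (SE, adjusted p = 0.001). The ribosome-bound scaffold Rack1 rose by 0.54 ± 0.11 (SE, adjusted p = 0.00525) and the initiation factor subunit Eif3f by 0.59 ± 0.13 (SE, adjusted p = 0.00921). The count was 5 without FD22 lysate 1, FD22 lysate 2 or P1 lysate 3 and 4 without P1 lysate 2. It was 1 with the 6 arrays alone and 6 with these arrays and the block by number.

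First bases of such mRNAs are shown because the class is defined by them. A cytosine followed by at least 4 pyrimidines and lying within 5 bases of the annotated start, on the transcribed strand, was found in 14 of 35 windows of ribosomal protein genes (40%) and in 3 of 11 of the other TOP mRNAs (27.3%). Of all windows 12.9% held one. A tract that began at another base than the annotated start had to follow a purine. The search was chosen after the values were seen, and annotated starts need not be those used in lung. Each line gives 10 bases before and 20 after the annotated start, with the tract in capitals, for risers in which it was found. Where the capitals begin at the annotated start, pyrimidines can stand directly before them, as in Rpl14, Rps3a and Rplp0. The windows lie at chr8:129163610-129163639 (plus strand), chr2:173827023-173827052 (minus strand), chr12:46718371-46718400 (minus strand), chr10:83272165-83272194 (minus strand), chr9:72074081-72074110 (plus strand) and chr1:172369052-172369081 (plus strand).
Rpl14: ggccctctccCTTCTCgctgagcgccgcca
Rps3a: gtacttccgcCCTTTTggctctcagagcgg
Rplp0: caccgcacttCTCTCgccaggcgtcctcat
Rpl23: cttcctttctgaCTCTTTCCggacgctcaa
Eef1b2: ggccggtcccggCCCTTTTTCTCCCTCagc
Eif3f: cccttccgttctagCCTCTCTCTTTCTCgg

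Further parts of the translation apparatus rose in part. Of 44 ribosome biogenesis genes, 12 rose (27.3%) and 0 fell by limma (0 at an unadjusted p under 0.05), with a median of 0.38 on polysomes and 0.14 in total RNA. The nucleolar GTPase Gnl3 rose by 0.73 ± 0.15 (SE, adjusted p = 0.00413) and the rRNA processing factor Ppan by 0.65 ± 0.14 (SE, adjusted p = 0.00732). The count was 4 without FD22 lysate 1, 7 without FD22 lysate 2 and 6 without any 1 of the P1 lysates. It was 0 with the 6 arrays alone and 8 with these arrays and the block by number. Of 49 initiation factor genes, 15 rose (30.6%) and 1 fell. Eif2s2, the beta subunit of the factor that brings the initiator tRNA, rose by 0.56 ± 0.10 (SE, adjusted p = 0.00224) and Eif6, which keeps the ribosomal subunits apart, by 0.61 ± 0.11 (SE, adjusted p = 0.0026). Eif4e3, a relative of the cap-binding protein, fell by 0.86 ± 0.17 (SE, adjusted p = 0.0046). The count of risers was 7 without FD22 lysate 1, 9 without FD22 lysate 2, 7 without P1 lysate 1, 6 without P1 lysate 2 and 8 without P1 lysate 3. It was 1 with the 6 arrays alone and 11 with these arrays and the block by number. Of 36 proteasome subunits, 5 rose (13.9%, against 4.74% of all genes) and 2 fell (5.6%, against 5.8%). The 5 risers lost their calls without FD22 lysate 1 and without P1 lysate 2.

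Respiratory chain subunits included more fallers than risers. Of 85 oxidative phosphorylation genes tested, 10 fell (11.8%) and 1 rose on polysomes, with a median of -0.12, whereas in total RNA 1 rose and 0 fell by limma (3 lower at an unadjusted p under 0.05). Uqcrq, a subunit of complex III, had 403, 385 and 339 on P1 polysomes, against 948, 906 and 517 on FD22 polysomes, a change of -1.02 ± 0.18 (SE, adjusted p = 0.00224). Ndufa2 of complex I had 264, 268 and 250.4 on P1 polysomes, against 729.7, 566 and 359 on FD22 polysomes, a change of -1.01 ± 0.20 (SE, adjusted p = 0.0034). In both genes FD22 lysate 3 lay nearest to the P1 arrays. Ndufb2, Ndufc1 and Ndufb5, also of complex I, fell by 0.82, 0.90 and 0.61, the last of which lost its call without P1 lysate 3. The difference between the fractions passed for 0 of the 85 (0 higher and 7 lower at an unadjusted p under 0.05).

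The count of respiratory fallers was 6 without FD22 lysate 1, 6 without FD22 lysate 2, 6 without P1 lysate 3 and 16 without FD22 lysate 3. Without FD22 lysate 1, 5 members rose beside the 6 fallers and the median was 0.01, and without P1 lysate 3 it was 0.02. The direction of the list therefore rested on single lysates. Over all 85 genes the median relative signal was 0.98, 1.03 and 0.834 in P1, against 1.26, 1.03 and 0.885 in FD22, so the list as a whole overlapped between stages. Of 73 mitochondrial ribosomal proteins, 6 were lower (8.2%, against 5.8% of all genes) and 0 higher by limma (7 higher at an unadjusted p under 0.05). Mrps18a fell by 0.79 ± 0.15 (SE, adjusted p = 0.00348) and Mrpl12 by 0.78 ± 0.18 (SE, adjusted p = 0.0126). That count was 1 without FD22 lysate 1, 3 without FD22 lysate 2, 9 without FD22 lysate 3, 3 without P1 lysate 1, 4 without P1 lysate 2 and 1 without P1 lysate 3.

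Of 26 type II cell and surfactant genes, 2 rose on polysomes (7.7%, against 4.74% of all genes), Ndnf at 0.72 ± 0.18 (SE, adjusted p = 0.0157) and the lung transcription factor Nkx2-1 at 0.36 ± 0.10 (SE, adjusted p = 0.031). The surfactant proteins did not pass. Their changes were 0.17 ± 0.12 (SE, adjusted p = 0.469) for Sftpa1, 0.36 ± 0.19 (SE, adjusted p = 0.274) for Sftpb, 0.30 ± 0.21 (SE, adjusted p = 0.45) for Sftpc and 0.25 ± 0.19 (SE, adjusted p = 0.51) for Sftpd. All 4 had been bright before birth, with FD22 means of 4066, 4324, 4627 and 4023, and their stages overlapped. Both risers lost their call without FD22 lysate 2, P1 lysate 2 or P1 lysate 3, and Nkx2-1 also without FD22 lysate 3 or P1 lysate 1.

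Of 20 type I cell genes, 3 rose (15%), and all 3 were keratins, which build the intermediate filaments of epithelium. Krt7 had 1501, 1271 and 1248 on P1 polysomes, against 448, 399 and 749.9 on FD22 polysomes, a change of 1.37 ± 0.19 (SE, adjusted p = 0.000273). Krt8 had 821, 757 and 941 on P1 polysomes, against 332, 319 and 492 on FD22 polysomes, a change of 1.15 ± 0.15 (SE, adjusted p = 0.000113). Krt19 rose by 0.72 ± 0.15 (SE, adjusted p = 0.00572). The defining type I genes Ager, Aqp5 and Pdpn changed by 0.31, -1.15 and 0.24 and did not pass (adjusted p = 0.53, 0.148 and 0.517). Of 15 airway genes 1 rose (6.7%, against 4.74% of all genes), the basal keratin Krt15 at 1.34 ± 0.28 (SE, adjusted p = 0.00628).

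Genes of lung liquid transport were also mixed, with 3 of 28 higher (10.7%, against 4.74% of all genes) and 1 lower (3.6%, against 5.8%). Aqp3, given above, was followed by the tight junction gene Cldn4, with 366, 447 and 299 on P1 polysomes, against 101, 104 and 117 on FD22 polysomes, a change of 1.72 ± 0.17 (SE, adjusted p = 8.85e-06). The endothelial water channel Aqp1 rose by 0.73 ± 0.18 (SE, adjusted p = 0.0144) and lost its call without FD22 lysate 2 or P1 lysate 2. The chloride channel Cftr had 171, 215 and 253 on P1 polysomes, against 389, 362 and 409 on FD22 polysomes, a change of -0.86 ± 0.18 (SE, adjusted p = 0.00668). Subunits of the epithelial sodium channel, which absorbs lung liquid, did not pass. Scnn1a had 988, 557 and 791 on P1 polysomes, against 661, 393 and 552 on FD22 polysomes, a change of 0.53 ± 0.26 (SE, adjusted p = 0.255). Scnn1b changed by -0.50 ± 0.19 (SE, adjusted p = 0.11) and Scnn1g by -0.15 ± 0.21 (SE, adjusted p = 0.76).

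Endothelial and flow-responsive genes lay mostly higher. Of 37 tested, 14 rose (37.8%) and 2 fell (5.4%, near the 5.8% of all genes), with a median of 0.37. Klf2 and Klf4 among the 14 are also counted with the immediate early genes above. Egfl7, a secreted endothelial factor, had 1419.8, 1607 and 1083 on P1 polysomes, against 434, 499 and 369 on FD22 polysomes, a change of 1.64 ± 0.17 (SE, adjusted p = 1.17e-05). Apln, the ligand of the apelin receptor, had 966, 1187 and 1062 on P1 polysomes, against 499, 360.5 and 448 on FD22 polysomes, a change of 1.30 ± 0.16 (SE, adjusted p = 6.46e-05). The lipid receptor S1pr1 rose by 0.73 ± 0.12 (SE, adjusted p = 0.0013), the flow-induced factor Klf4 by 1.03 ± 0.18 (SE, adjusted p = 0.00162) and the TGF-beta co-receptor endoglin (Eng) by 0.95 ± 0.17 (SE, adjusted p = 0.00185). Pecam1, a defining marker of the cell type, had 946, 1191 and 838 on P1 polysomes, against 708, 942 and 994 on FD22 polysomes, and its change of 0.17 ± 0.15 (SE, adjusted p = 0.576) did not pass. The VEGF receptor Kdr and Emcn, a surface sialomucin, were the 2 fallers, both without a call once FD22 lysate 2, P1 lysate 2 or P1 lysate 3 was left out, and the list held 1 faller without each other lysate. The count of risers was 8 without FD22 lysate 2 and 9 without P1 lysate 1.

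Mesenchymal genes fell and rose. Of 28 smooth muscle and mesenchyme genes, 5 rose (17.9%, against 4.74% of all genes) and 3 fell (10.7%, against 5.8%). Wnt2, a signal from fetal lung mesenchyme, had 195, 247 and 236 on P1 polysomes, against 746, 569 and 444 on FD22 polysomes, a change of -1.33 ± 0.20 (SE, adjusted p = 0.000418). The homeobox gene Meox2 had 944, 924 and 849 on P1 polysomes, against 1562, 1443 and 1587 on FD22 polysomes, a change of -0.75 ± 0.11 (SE, adjusted p = 0.000485). Hhip, an inhibitor of hedgehog signals, changed by -0.85 ± 0.21 (SE, adjusted p = 0.0184) and lost its call without FD22 lysate 2, P1 lysate 2 or P1 lysate 3. The 5 risers included Tagln and Cnn1, contractile proteins counted above, and were 2 without FD22 lysate 1, 3 without FD22 lysate 2, 2 without P1 lysate 1 and 3 without P1 lysate 2.

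Of 56 matrix and protease genes, 4 rose (7.1%, against 4.74% of all genes) and 1 fell (1.8%, against 5.8%). The count of risers was 1 without FD22 lysate 1 or 2, and 2 without P1 lysate 1 or 3. Timp1, an inhibitor of matrix metalloproteinases, rose by 0.82 ± 0.13 (SE, adjusted p = 0.000726), and the fibril-associated collagen gene Col14a1 fell by 0.63 ± 0.11 (SE, adjusted p = 0.00236). Of 26 fetal growth and imprinted genes, 2 rose and 2 fell (7.7% each), near the shares of all genes. The fallers were the imprinted hydrolase Mest at -0.81 ± 0.13 (SE, adjusted p = 0.000766) and the growth inhibitor Grb10 at -0.46 ± 0.12 (SE, adjusted p = 0.0173). Grb10 was without a call once P1 lysate 2 was left out. Igf2, the main fetal growth factor, did not pass, at -0.02 ± 0.17 (SE, adjusted p = 0.965). Of 34 antioxidant genes, 5 rose (14.7%) and 0 fell by limma (0 lower at an unadjusted p under 0.05), with the mitochondrial superoxide dismutase Sod2 at 0.60 ± 0.14 (SE, adjusted p = 0.0101) and the thioredoxin reductase Txnrd1 at 0.67 ± 0.15 (SE, adjusted p = 0.0102). Without FD22 lysate 1 there were 2 such calls, and neither of these genes held. Of 29 glucocorticoid and clock genes, 4 rose (13.8%) and 1 fell (3.4%), with the clock repressor Cry1 at 0.74 ± 0.15 (SE, adjusted p = 0.0055), and 2 rose without FD22 lysate 1 or P1 lysate 2. Of 31 leukocyte genes 2 rose (6.5%), the lipopolysaccharide co-receptor Cd14 at 1.12 ± 0.20 (SE, adjusted p = 0.0021) and C1qc at 0.46 ± 0.14 (SE, adjusted p = 0.0433). Of 25 erythroid genes 1 fell (4.0%), Car2 at -0.51 ± 0.13 (SE, adjusted p = 0.02). Both shares lay near those of all genes. C1qc lost its call without any 1 lysate, and Car2 without FD22 lysate 2, P1 lysate 1 or P1 lysate 3. Of 15 liver, thymus, cartilage and neural genes 0 passed limma (0 at an unadjusted p under 0.05).

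Set beside total RNA of the same lysates, the polysomal change was called more often in the main fit. That fit took the spread of each probe set as the same in both fractions. With the arrays of each contrast fitted alone, risers were about as many in total RNA as on polysomes, and only fallers stayed more frequent on polysomes. With the array number as a block, risers and fallers were both more frequent on polysomes. In total RNA 304 genes were higher (2.62%) and 269 lower (2.32%), or 479 and 382 by probe set, and median centring gave 637 and 260 in place of these (71.0% higher in place of 55.6%). Of the 821 probe sets higher on polysomes, 333 were higher in total RNA as well, which is 40.6% of the polysomal and 69.5% of the total calls. Of the 986 lower, 249 were lower in total RNA, 25.3% and 65.2% of the calls. A single probe set was called in opposite directions, that of Tmem123, a cell surface protein. It had 865, 656 and 731 in P1 and 1248, 1241 and 856 in FD22 on polysomes, against 1573, 1191 and 1247 in P1 and 1024, 907 and 700.0 in FD22 in total RNA. Both limma calls lay near the threshold (adjusted p = 0.0445 on polysomes and 0.0439 in total RNA), and the polysomal stages overlapped. Tmem123 was not among the genes, given below, whose difference between the fractions passed.

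**Figure D5:**
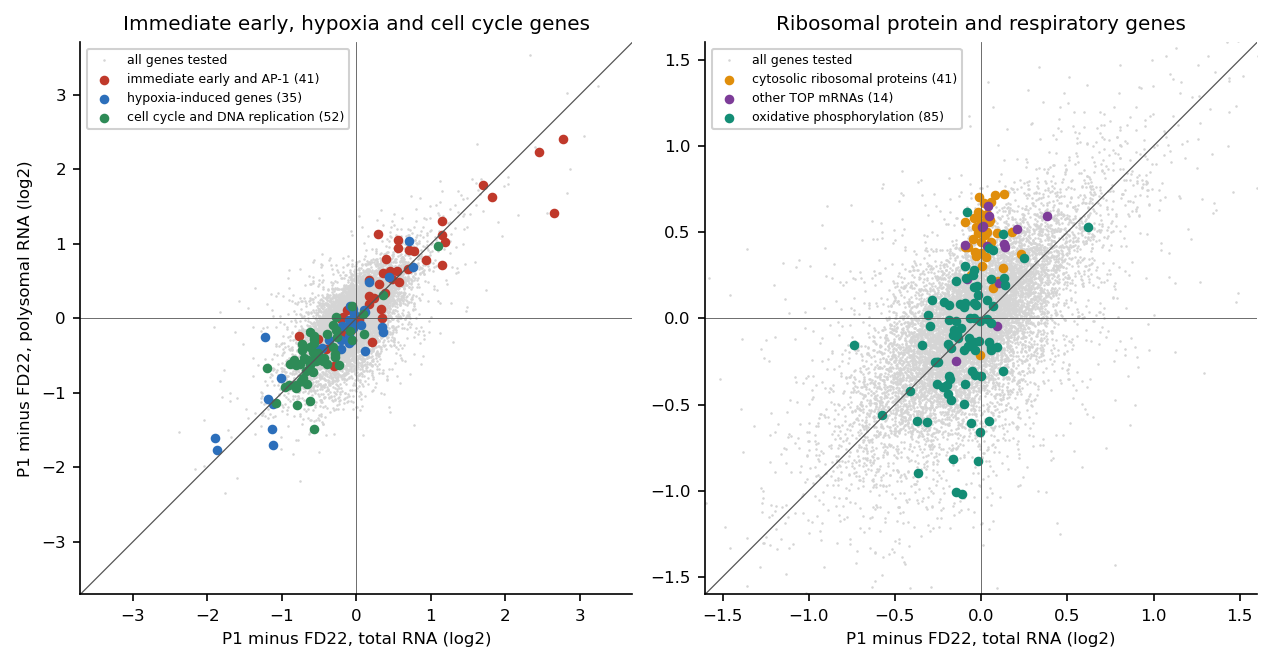
Change across birth in polysomal RNA (vertical) against that in total RNA (horizontal), both log2, for all 11590 genes in grey and for members of 6 lists in colour, with a line of equal change. Immediate early, hypoxia and cell cycle genes lie along the line, whereas 40 of the 41 ribosomal protein genes lie above 0 on the vertical axis with total changes around 0.

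The difference between the 2 changes was tested for each gene. It passed for 3 of 11590 genes (0.0259%), all 3 more negative on polysomes, while 352 probe sets were more positive and 591 more negative at an unadjusted p under 0.05. Ppp1r2, an inhibitor of protein phosphatase 1, had 719, 497 and 517 on P1 polysomes, against 1096, 1493 and 1356 on FD22 polysomes. In total RNA the same gene had 967, 1124 and 1061 in P1, against 848, 980.0 and 554 in FD22. The polysomal change was -1.19 ± 0.18 (SE, adjusted p = 0.000688), the total change 0.44 ± 0.18 (SE, adjusted p = 0.22) and their difference -1.63 ± 0.26 (SE, adjusted p = 0.0416).

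Arpc5l, a subunit of the actin-nucleating Arp2/3 complex, had 225, 227 and 199 on P1 polysomes, against 600.1, 589 and 467 on FD22 polysomes. Its total RNA was 433, 564 and 519.7 in P1, against 479, 534 and 483 in FD22. The change was -1.32 ± 0.13 (SE, adjusted p = 8.85e-06) on polysomes and 0.01 ± 0.13 (SE, adjusted p = 0.982) in total RNA, with a difference of -1.33 ± 0.19 (SE, adjusted p = 0.0182). Ccnyl1, a cyclin Y relative, had 141, 165 and 157 on P1 polysomes, against 187, 200.3 and 149 on FD22 polysomes. Here total RNA rose, with 383, 416 and 356 in P1, against 174, 207 and 145 in FD22, and the polysomal change of -0.20 ± 0.15 (SE, adjusted p = 0.504) did not pass. The difference was -1.32 ± 0.21 (SE, adjusted p = 0.0416). With the lysate as a block the adjusted p was 0.185 for Ppp1r2, 0.14 for Arpc5l and 0.14 for Ccnyl1, and 0 probe sets passed (634 more positive and 911 more negative at an unadjusted p under 0.05), whereas 20 passed without FD22 lysate 3 and 0 without FD22 lysate 1, FD22 lysate 2, P1 lysate 2 or P1 lysate 3.

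Insig1 and Crebzf were among the deepest polysomal falls with no call in total RNA. Insig1 in total RNA had 803, 543 and 706 in P1, against 999, 907 and 805 in FD22, a change of -0.41 ± 0.17 (SE, adjusted p = 0.194) that did not pass, and the difference from polysomes was -1.15 ± 0.23 (SE, adjusted p = 0.227). Crebzf in total RNA had 300.4, 270.0 and 326 in P1, against 431, 322 and 354 in FD22, a change of -0.29 ± 0.16 (SE, adjusted p = 0.381), and the difference was -1.26 ± 0.23 (SE, adjusted p = 0.128). Neither gene was therefore shown to change on polysomes by another amount than in total RNA. All arrays were scaled alike, so that a change on polysomes is relative to the other RNA of the same fraction.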

How the data were processed

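Signals were deposited by the authors as linear intensity per probe set of the Affymetrix Rat Genome 230 2.0 array, made with GCOS 1.4 per the submitters' processing notes, with a 2% trimmed mean of 150.0 on every array. The algorithm is not given in the sources used here. Array medians ran from 51.6 to 57.7 in P1 and from 56.8 to 61.0 in FD22 polysomal RNA. The number of arrays limits the precision.

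With 57 controls left out, 31042 probe sets remained, and 21675 of them passed a filter that asked for 3 or more of the 18 arrays above a signal of 40.8 (the 40th percentile). The model was fitted to log2(signal + 5.5), the constant being the 10th percentile, in limma 3.58.1 under R 4.3.3 (6 group means, all 18 arrays, 12 residual degrees of freedom, eBayes with a trend). Each gene was represented by the brightest tested probe set that is annotated to no other gene (20826 probe sets name 1 gene, 436 several and 9780 none). Of other probe sets of called genes, 136 were called too and 0 opposite. Tables were made in pandas 2.3.3 with numpy 2.4.6, and figures in matplotlib 3.10.9 (Python 3.11.15). Promoter sequences are from RefSeq (GRCr8).

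Gene lists and comparisons were chosen with earlier results of these data known. The lists are not separate, and several risers are counted in more than 1 of them, such as Klf2, Klf4, Dusp1, Sod2, Igfbp3 and Cars1. Genes were named by rule: the 14 highest and 14 lowest called without overlap and above the 60th percentile in the higher group, up to 5 called members of each list by p, 11 genes always, cell type markers, and those called for the difference. Other list members are named without values. In simulated data with noise drawn independently for each array, 67 probe sets were changed 1.5-fold, 67 were changed 2-fold and 66 were changed 4-fold. The fit found 16.4%, 62.7% and 93.9% of them, and 5% of its calls were false. More probe sets were called in the real data, and their arrays share lysates, so these shares need not hold there. Total and polysomal arrays of a lysate share animals, and their deviations correlated (r of 0.19 to 0.49), so the difference between fractions is also given with the lysate as a block. The main fit counted both arrays of a lysate as independent. Its residual degrees of freedom can therefore be too many, and its adjusted p too small, for calls within a fraction as well.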

Additional observations from a re-analysis of the deposited data

Results flagged for a closer look

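For 3 genes the change across birth differed between polysomal and total RNA by the test of that difference (limma, adjusted p under 0.05). The polysomal minus total difference was -1.63 for Ppp1r2, -1.33 for Arpc5l and -1.32 for Ccnyl1 on the log2 scale, with 3 arrays per group. Both further probe sets of Ppp1r2 were called lower on polysomes, whereas Arpc5l and Ccnyl1 have no second probe set among those tested. With the lysate, which both fractions share, as a block the adjusted p was 0.185 for Ppp1r2, 0.14 for Arpc5l and 0.14 for Ccnyl1, so that all 3 calls were lost. The cause was not tested.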

How the results depend on the processing

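No call of a probe set across birth on polysomes reversed under any alternative run. The replicate block by number was fitted to the 6 arrays of each contrast, or to 12 for the difference. It gave 676 higher and 695 lower on polysomes and 310 and 164 in total RNA, more than these arrays gave without it. For the difference it gave 0, and the lysate block 0. Deviations of equally numbered P1 and FD22 polysomal arrays correlated by 0.39, 0.16 and 0.09. P1 arrays 1 and 2 correlated best with their own numbers. P1 array 3 correlated best with FD22 array 2 (r = 0.29), not with its own number, so the numbers were not taken as pairs. The arrays numbered 1 of every stage stood apart on the second principal component, as given above. Whether arrays of 1 number share a batch is not given by the labels and was not tested. The block raised the calls among lung liquid and ion transport genes to 7 higher and 2 lower (3 and 1 without it), with Scnn1a at 0.53 (adjusted p = 0.0418). With the 6 arrays of the contrast alone and no block 243 probe sets were higher and 233 lower on polysomes (244 and 108 in total RNA). With arrays 2 and 3 alone there were 425 and 387 (244 and 150). Without 1 lysate the range was 499 to 811 higher and 576 to 1076 lower on polysomes, and 258 to 405 higher and 188 to 362 lower in total RNA. For the difference of changes 0 to 20 were lower without 1 lysate, 1 without the filter, and 0 without the variance trend, with 12 arrays or with arrays 2 and 3. Fits with fewer arrays have fewer degrees of freedom. The fit of the 6 arrays alone holds 1 array per lysate, so that no lysate is counted more than once in it. How far this or the fewer degrees of freedom lowered its calls was not tested. The block by number, fitted to these arrays with still fewer degrees of freedom, gave more calls. The cause of the lost calls without the filter or the trend was not tested. Of 150 named called genes, 76 kept their call in every alternative and 105 without any 1 lysate. No filter gave 669 and 794. The constants tried were 0.9 and 26.3. In the simulated data most changes of 1.5-fold were not found. Smaller changes were called in the real data, such as that of Rpl3 at 0.36 on the log2 scale.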

Other observations

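Several further gene groups were picked after their values were seen, and their counts are descriptions. Some of their genes were already counted in the lists above. Of 26 genes of fatty acid oxidation tested, 6 rose on polysomes and 1 fell, where 4.74% of all genes were higher and 5.8% lower. Cpt1a, the gate for fatty acids into mitochondria, had 585, 549 and 538 on P1 polysomes, against 167, 207 and 239 on FD22 polysomes, a change of 1.44 ± 0.17 (SE, adjusted p = 4.29e-05). Ech1 and Eci2, isomerases for unsaturated fatty acids, rose by 1.02 ± 0.11 (SE, adjusted p = 1.74e-05) and by 1.11 ± 0.12 (SE, adjusted p = 1.8e-05), and the dehydrogenase Acadl by 1.02 ± 0.17 (SE, adjusted p = 0.000917). Ucp2, an uncoupling protein family member, rose by 0.87 ± 0.24 (SE, adjusted p = 0.0311) and lost its call without the FD22 lysate with liver transcripts, as did the faller Eci1, another isomerase, at -0.40 ± 0.11 (SE, adjusted p = 0.0303). With Acot1, described above, these made the 6 risers, and 4 of the 26 were called higher in total RNA.

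Annexins, calcium-dependent membrane-binding proteins, rose in 6 of 9 cases with a median of 0.57, where 4.74% of all genes were higher. The count was 3 without P1 lysate 3. It was 3 with the 6 arrays of the contrast alone and 6 with these arrays and the block by number. Anxa3 had 1424, 1835 and 1835 on P1 polysomes, against 667, 655 and 555 on FD22 polysomes, a change of 1.43 ± 0.18 (SE, adjusted p = 0.000108), and Anxa1, a target of glucocorticoids, changed by 0.86 ± 0.16 (SE, adjusted p = 0.00239). Of 17 keratins 5 rose and 0 fell by limma (0 lower at an unadjusted p under 0.05), where 4.74% of all genes were higher and 5.8% lower. Krt7, Krt8, Krt19 and Krt15 were already counted above with type I and airway genes. The further riser was Krt18, the partner of Krt8, at 0.89 ± 0.16 (SE, adjusted p = 0.00184). Of 13 serine- and arginine-rich splicing genes, 2 rose and 2 fell, where 4.74% of all genes were higher and 5.8% lower. Srsf5 had 1699.8, 1530.5 and 2101 on P1 polysomes, against 807, 781 and 1204 on FD22 polysomes, a change of 0.95 ± 0.20 (SE, adjusted p = 0.00649), whereas Tra2a had 208, 196 and 304 on P1 polysomes, against 724, 606 and 484 on FD22 polysomes, a change of -1.35 ± 0.23 (SE, adjusted p = 0.0012).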
